A study of Homo sapiens with 4 samples.

Results

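To describe what histidine alone does to gene expression in leukemia cells, the RNA-seq library of Reh-6-MPR cells given histidine was compared with the library of the same cells given vehicle. The comparison used 2 of the 4 libraries of the experiment and every gene whose FPKM averaged 1 or more across all 4 libraries, which kept 12750 of 29833 genes. Of these, 9997 were protein-coding genes, out of 15471 in the table. FPKM scales the reads of a gene to its length and to the depth of its library, so levels are per length. The difference given for a gene is log2(FPKM + 1) in the histidine library minus that in the vehicle library, a scale on which the change of a weakly expressed gene looks smaller than it is. Around the limit on the mean FPKM, NINJ2 at 1.00 was kept with a difference of -0.03, whereas HOXA4 was left out at a mean that rounds to 1.00 although its difference was 1.44.

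Reh is an established human cell line of B-cell acute lymphoblastic leukemia (B-ALL), and Reh-6-MPR is its derivative, made resistant to the thiopurine drug 6-mercaptopurine (6-MP) by repeated passage in rising drug concentrations. The cells received PBS as vehicle, 4 mM histidine, 1.0 μg/mL 6-MP, or histidine and 6-MP together, and were collected at 48 h. All groups share the resistant line, so the comparison says nothing about parental cells, and the culture medium already contains histidine. Each treatment was measured in 1 library, so the spread between replicate cultures is unknown and no p-values are given.

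The depth was 14316493 reads for vehicle and 15486376 reads for histidine. The deposited values step in whole reads, so the reads behind each gene were recovered, and a 95% interval was computed from them with the exact Clopper-Pearson method. These intervals cover counting error only and compare the libraries, not the treatments. All 15 precursor B cell markers found in the table were well above the filter, with RAG1 at 243 FPKM and PAX5 at 72.3 FPKM in the vehicle library. Of the 26 markers listed for T cells, myeloid cells, erythroid cells and stroma, 11 were in the table. Most were at or near 0, except MPO, a granule enzyme of myeloid cells, at 27.7 FPKM with vehicle and 30.5 with histidine, TRAC, a T cell receptor constant region, at 11.6 and 12.2, and COL1A1 at 0.87 and 1.05. The summed level of the 11 markers was 41.7 FPKM with vehicle and 44.8 with histidine, and their part in the results was not tested.

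Histidine is an essential amino acid. Its breakdown runs through histidine ammonia-lyase (HAL), urocanate hydratase (UROC1), imidazolonepropionase (AMDHD1) and formimidoyltransferase cyclodeaminase (FTCD), of which the last loads a formimino group onto tetrahydrofolate, the one-carbon carrier also used in purine synthesis. The imidazole ring of histidine binds zinc and copper ions, and metallothioneins and the zinc exporter SLC30A1 are classical targets of the zinc-sensing factor MTF1. These routes set the order in which the pathways are described.

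Sequences of 2 kinds are shown, namely promoters of 2 metal-handling genes that were lower with histidine and the starts of coding sequences of GC-rich genes that were higher. The promoters are the 250 bases upstream of the RefSeq start on GRCh38.p14, 5′ to 3′ on the strand of the gene, with matches to the metal response element core in capitals. The core was searched as TGCACNC or TGCGCNC on both strands, so a match on the other strand reads GNGTGCA or GNGCGCA. MT2A lies on the plus strand (chr16:56608334-56608583) and SLC30A1 on the minus strand (chr1:211579162-211579411).
MT2A: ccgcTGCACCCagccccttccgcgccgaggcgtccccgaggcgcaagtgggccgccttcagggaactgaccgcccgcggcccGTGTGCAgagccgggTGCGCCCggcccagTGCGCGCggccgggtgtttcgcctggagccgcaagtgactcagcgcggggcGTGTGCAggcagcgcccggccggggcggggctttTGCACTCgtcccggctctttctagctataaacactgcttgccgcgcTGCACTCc
SLC30A1: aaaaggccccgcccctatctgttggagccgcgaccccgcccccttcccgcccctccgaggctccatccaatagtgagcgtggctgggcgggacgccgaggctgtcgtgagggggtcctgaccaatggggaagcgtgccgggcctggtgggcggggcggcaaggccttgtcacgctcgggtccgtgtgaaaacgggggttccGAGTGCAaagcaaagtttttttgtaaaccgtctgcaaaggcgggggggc
The MT2A promoter held 7 matches and the SLC30A1 promoter held 1. Among 35116 RefSeq promoters searched over the same 250 bases, 24.8% held at least 1 match and 1.58% held at least 3. A match is a description of these letters only.

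The protein-coding genes with the largest differences, C4orf48 and INAFM1, are short and very rich in G and C. Shown are the first 90 coding bases of each from GENCODE 29 on GRCh38, with runs of at least 6 G or C in capitals, because GC content went along with the difference across genes as described further on. The INAFM1 stretch lies at chr19:47274920-47275009 and the C4orf48 stretch spans an intron within chr4:2041995-2042342, both on the plus strand.
C4orf48: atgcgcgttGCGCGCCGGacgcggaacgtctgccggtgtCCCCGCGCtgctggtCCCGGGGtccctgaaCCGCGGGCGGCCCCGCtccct
INAFM1: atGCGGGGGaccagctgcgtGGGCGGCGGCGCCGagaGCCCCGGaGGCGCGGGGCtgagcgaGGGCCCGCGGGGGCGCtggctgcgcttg
The GC content of these stretches was 77.8% for C4orf48 and 82.2% for INAFM1.

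Genes of histidine breakdown were barely expressed in these cells, and none of the 4 enzymes reached the mean FPKM of 1. HAL had 0.122 FPKM with vehicle, 0.276 with histidine, 0.101 with 6-MP alone and 0.151 with both, from 9 reads with vehicle and 22 with histidine. Its difference was 0.19 (95% interval 0.00 to 0.33), and the histidine library was the highest of the 4. AMDHD1 had 0.369 FPKM with vehicle, 0.730 with histidine, 0.393 with 6-MP alone and 1.26 with both, so that both libraries with histidine were above both without. This order held for 24.6% of the protein-coding genes past the filter. The AMDHD1 difference of 0.34 (0.01 to 0.62) rested on 14 and 30 reads. FTCD had 0.0816 FPKM with vehicle, 0.0754 with histidine, 0.0381 with 6-MP alone and 0.362 with both, from 4, 4, 2 and 16 reads, so the combined treatment was the highest. Its difference for histidine against vehicle was -0.01 (-0.15 to 0.14). UROC1 was listed at 0 in both, where 3 reads would correspond to 0.0610 FPKM with vehicle and 0.0564 with histidine. A change in UROC1 below these levels was not detectable at this depth. HDC, which makes histamine from histidine, was also listed at 0 in both libraries.

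Other genes linked to histidine or histamine were expressed and differed little. Histidine is charged onto its tRNA by HARS1 in the cytosol, at 7.30 FPKM with vehicle and 7.56 with histidine, and by HARS2 in mitochondria, at 9.41 and 9.25. METTL9, a methyltransferase of histidine residues in proteins, had 2.58 FPKM with vehicle and 2.10 with histidine, a difference of -0.21 (-0.39 to -0.02). HRH2, a histamine receptor, had 2.09 FPKM with vehicle and 2.68 with histidine, a difference of 0.25 (0.05 to 0.46). CNDP2, a dipeptidase that splits histidine-containing dipeptides, had a difference of -0.08 (-0.15 to -0.01), and ALDH7A1, an aldehyde dehydrogenase, one of 0.14 (0.04 to 0.23). In the list of histidine breakdown and histamine genes, 21 members were in the table, 9 passed the filter, and none of these reached an absolute difference of 0.5.

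The amino acid transporters listed, among them carriers of histidine, were likewise close to vehicle. The list of histidine and neutral amino acid transporters had 15 members past the filter, from -0.17 to 0.12, with a median of 0.04. SLC7A5, the large neutral amino acid transporter, had 70.7 FPKM with vehicle and 75.2 with histidine. SLC38A5, a sodium-coupled carrier of histidine and glutamine, had 43.7 and 44.7. SLC15A4, which moves histidine out of lysosomes, had a difference of 0.11 (-0.08 to 0.30). The highest member was SLC7A1, a carrier of cationic amino acids, with 0.12 (0.06 to 0.19), and the lowest was SLC7A11, the cystine importer, with -0.17 (-0.29 to -0.06).

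SIRT5 and HINT1, the desuccinylase and its substrate on which the study centres, had similar transcript levels in both libraries. SIRT5 had 3.77 FPKM with vehicle, 3.48 with histidine, 3.59 with 6-MP alone and 4.76 with both, and its difference was -0.09 (-0.22 to 0.04). HINT1 had 24.1 FPKM with vehicle, 24.7 with histidine, 25.2 with 6-MP alone and 30.0 with both, with a difference of 0.04 (-0.04 to 0.11). Both intervals include 0. Among the other sirtuins, SIRT2, a cytosolic deacetylase, stood lowest at 3.13 FPKM with vehicle and 1.87 with histidine, a difference of -0.53 (-0.72 to -0.33). It was lower still with 6-MP, at 1.14 FPKM. SIRT1 had a difference of -0.17 (-0.30 to -0.05), SIRT3 one of 0.17 (-0.01 to 0.34) and SIRT4 one of 0.22 (-0.24 to 0.67).

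Across the transcriptome the difference between the libraries was small. Over the 9997 protein-coding genes the median difference was 0.01, with the 5th percentile at -0.18 and the 95th at 0.25. Pearson's r between the libraries on the log2 scale was 0.995 across these genes, which share their annotated lengths and are not independent replicates. An absolute difference of at least 1 was reached by 19 protein-coding genes (0.19% of those tested), 15 of them higher with histidine (0.15%) and 4 lower (0.04%). At 0.5 there were 97 genes (0.97%), 68 higher (0.68%) and 29 lower (0.29%). Among the 6735 protein-coding genes averaging 5 FPKM or more, 21 were higher and 8 were lower by at least 0.5. Of all 9997 genes, 46.3% were lower and 53.7% higher with histidine by any amount, which is the background for the counts of lower and higher members in the lists below. The counting interval lay above 0 for 1426 genes (14.3%) and below 0 for 1016 genes (10.2%). Just short of the limit of 1 were GON7 at 0.98 and MT-ATP8 at -0.92, and just past it were UBL7 at 1.01 and NMRAL1 at -1.09.

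**Figure D1:**
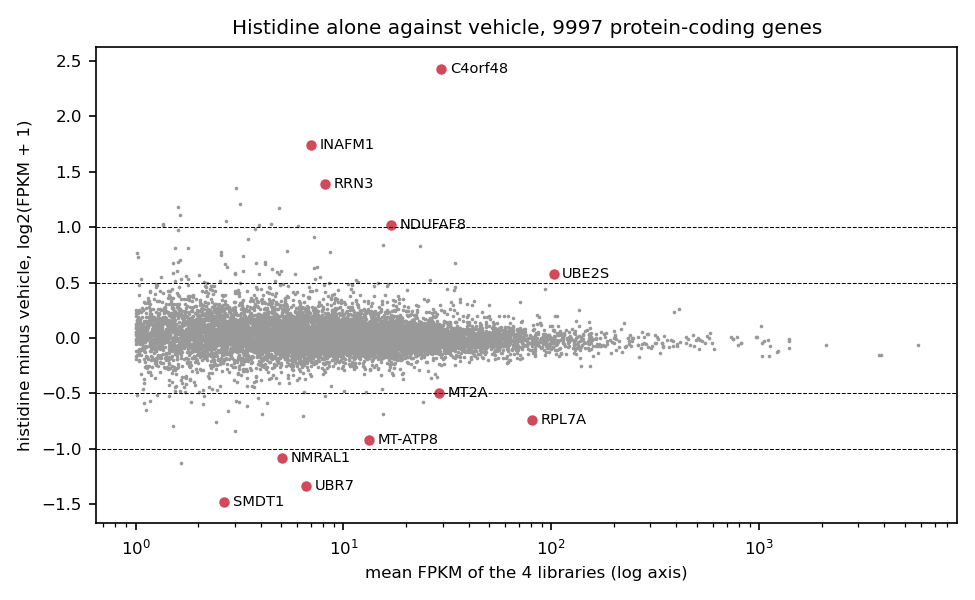
Difference of log2(FPKM + 1), histidine minus vehicle, against the mean FPKM of the 4 libraries on a log axis, for 9997 protein-coding genes with 1 library per treatment. Each point is a gene, dashed lines mark differences of 0.5 and 1 in each direction, and most genes lie between them, with the 5th to 95th percentile from -0.18 to 0.25.

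Over all biotypes, 170 genes (1.33%) had an absolute difference of at least 1, 102 of them higher (0.8%) and 68 lower (0.533%), and 151 of these were not protein-coding. Those 151 had a median of 7 reads in both libraries together and at most 61. Short RNAs (miRNA, snRNA, snoRNA and miscellaneous RNA) gave 102 of the 399 tested and long noncoding RNAs gave 24 of 1368. With at least 50 reads in both libraries together, 20 genes of any biotype remained past the limit, of which 18 were protein-coding. That share was near the background, since 9938 of the 11406 genes tested at this depth were protein-coding. The highest among the noncoding genes averaging 5 FPKM or more were RNU6-925P at 1.85 (0.25 to 3.03) from 2 and 12 reads, SNORD11 at 1.51 (0.43 to 2.64) from 8 and 27 reads, and RNU6-1274P at 1.48 (0.12 to 2.75) from 4 and 15 reads. The lowest were MIR3124 at -1.42 (-2.83 to -0.04), SNORD101 at -1.42 (-2.65 to -0.22) and SNORD6 at -1.34 (-2.59 to -0.14). The libraries were made from poly(A) RNA, which such short RNAs mostly lack.

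The protein-coding gene with the largest difference was C4orf48 (ENSG00000243449, chr4:2041995-2043964, GRCh38), which encodes a small secreted protein. It had 6.56 FPKM with vehicle, 39.8 with histidine, 42.0 with 6-MP alone and 29.7 with both, and a difference of 2.43 (2.04 to 2.83) from 50 and 328 reads. INAFM1 (ENSG00000257704, chr19:47274885-47275723) followed with 1.42 FPKM with vehicle, 7.08 with histidine, 7.61 with 6-MP alone and 11.7 with both, a difference of 1.74 (1.23 to 2.22). In both genes the vehicle library was the lowest and the other 3 libraries lay well above it. RRN3 (ENSG00000085721, chr16:15060033-15094311), which recruits RNA polymerase I to ribosomal DNA, had 3.98 FPKM with vehicle, 12.1 with histidine, 8.46 with 6-MP alone and 8.22 with both, a difference of 1.39 (1.21 to 1.57). Here the histidine library was the highest and vehicle again the lowest, and RRN3 has near-identical pseudogenes, so its count is uncertain.

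PDF, NDUFAF8, CRLS1 and TOMM20L, also higher by at least 1, are described together because their proteins belong to mitochondria. PDF, the mitochondrial peptide deformylase, had 1.07 FPKM with vehicle, 4.31 with histidine, 3.72 with 6-MP alone and 3.01 with both (difference 1.36, 1.07 to 1.63). NDUFAF8, a complex I assembly factor, had 10.1 FPKM with vehicle, 21.5 with histidine, 20.1 with 6-MP alone and 16.2 with both (1.02, 0.79 to 1.25). CRLS1, which makes cardiolipin, had 0.456 FPKM with vehicle, 1.95 with histidine, 2.13 with 6-MP alone and 0.896 with both (1.02, 0.80 to 1.21). TOMM20L, a relative of the import receptor TOMM20, rested on 6 and 23 reads (1.03, 0.30 to 1.60), with 12 reads under 6-MP alone and 8 under both. These genes were taken for their differences, and the lists of mitochondrial proteins described below did not have higher medians. SMDT1, whose protein is also mitochondrial, went the other way, with a difference of -1.48.

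SCAMP3, a carrier of post-Golgi membranes, had 1.72 FPKM with vehicle, 5.29 with histidine, 2.83 with 6-MP alone and 2.95 with both, so that histidine alone stood clear of the other libraries (1.21, 0.91 to 1.499). UBL7, a ubiquitin-like protein, was also highest with histidine alone, at 4.11 FPKM with vehicle, 9.28 with histidine, 5.77 with 6-MP alone and 4.98 with both (1.01, 0.74 to 1.28). PSMB3, a subunit of the proteasome core, had 2.69 FPKM with vehicle, 6.52 with histidine, 4.63 with 6-MP alone and 4.18 with both (1.03, 0.63 to 1.42). SAMD1, which binds unmethylated CpG islands, had 0.183 FPKM with vehicle and 1.55 with histidine, from 6 and 55 reads (1.11, 0.79 to 1.31). It had 1.36 FPKM with 6-MP alone and 3.48 with both. LKAAEAR1 (1.02, 0.51 to 1.51) and the gene listed as ENSG00000286190 (1.06, 0.62 to 1.44) rested on 22 and 16 reads with vehicle. For 6-MP against vehicle their differences were 0.72 and 0.92.

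PDXP, a pyridoxal phosphatase (1.18, 0.83 to 1.47), and RAB5IF, a RAB5-interacting factor (1.18, 0.82 to 1.53), share exons with other genes on the same strand in GENCODE 29. For 6-MP against vehicle the differences were 1.07 for PDXP and 1.09 for RAB5IF. The shared portion was 62.6% of the exon bases of PDXP, 39.3% of RAB5IF and 48.3% of PDF, so their values depend on how shared reads were counted. With at least 10% of exon bases taken as sharing, this held for 9 of the 68 genes higher by at least 0.5 and 6 of the 29 lower, or 13.2% and 20.7%, beside 5.33% of all protein-coding genes tested. Of the 19 genes past 1 these were PDF, PDXP, RAB5IF and UBR7.

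Further genes averaging 5 FPKM or more with high differences were LY6E, a GPI-anchored surface protein, with 4.95 FPKM with vehicle and 10.2 with histidine (0.91, 0.70 to 1.13), SAC3D1, a centrosomal protein, with 8.51 and 16.0 (0.84, 0.62 to 1.06), and EBPL, a relative of the sterol isomerase EBP, with 16.7 and 30.5 (0.83, 0.66 to 1.01). HOMER3, a scaffold protein, had 3.84 and 7.34 FPKM (0.79, 0.57 to 1.00), and KRT10, a type I keratin, had 5.97 and 10.9 (0.77, 0.55 to 1.00). In all 5 genes the 6-MP library was also above vehicle, by 0.62 to 0.86.

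**Figure D2:**
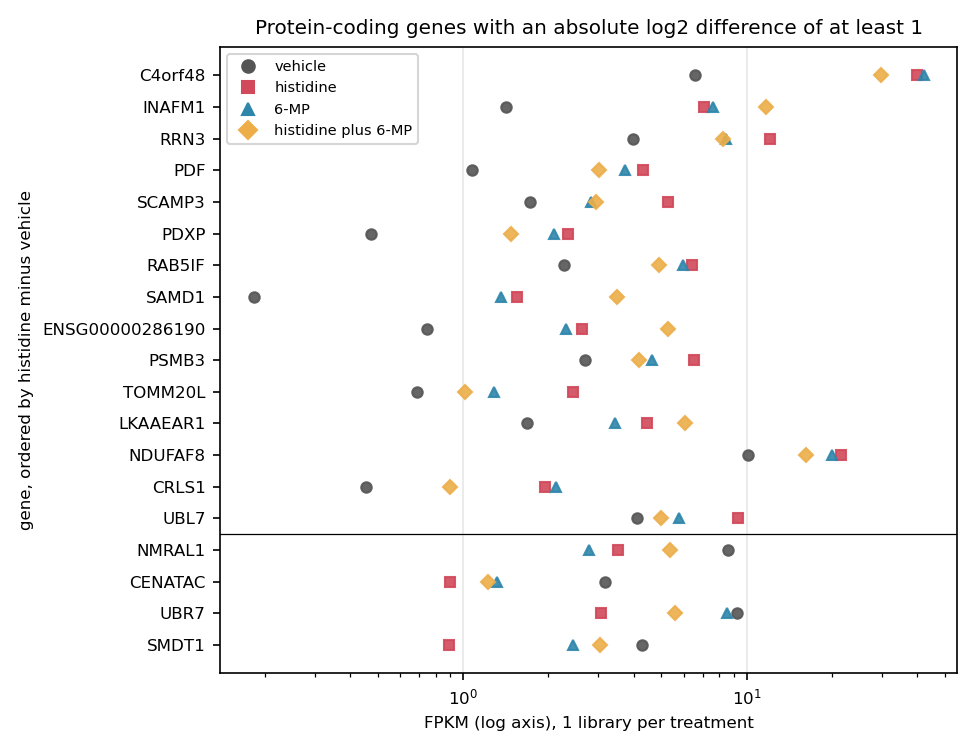
FPKM on a log axis in each of the 4 libraries for the 19 protein-coding genes with an absolute difference of at least 1, ordered by histidine minus vehicle, each marker being 1 library. The vehicle marker is the lowest of the 4 in all 15 genes above the line and the highest in all 4 genes below it. The genes were chosen for a large difference from vehicle.

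The 4 protein-coding genes lower by at least 1 were SMDT1, UBR7, CENATAC and NMRAL1. SMDT1 (ENSG00000183172, chr22:42079691-42084284), the essential regulator EMRE of the mitochondrial calcium uniporter, had 4.28 FPKM with vehicle, 0.895 with histidine, 2.45 with 6-MP alone and 3.05 with both, a difference of -1.48 (-1.82 to -1.10) from 106 and 24 reads. UBR7 (ENSG00000012963, chr14:93207241-93229215), a ubiquitin ligase that acts on histone H2B, had 9.26 FPKM with vehicle, 3.07 with histidine, 8.54 with 6-MP alone and 5.57 with both, a difference of -1.33 (-1.54 to -1.12) from 465 and 167 reads. In UBR7 both libraries with histidine were below both without, as in 13.8% of all protein-coding genes tested. CENATAC, a component of the minor spliceosome, had 3.16 FPKM with vehicle, 0.897 with histidine, 1.31 with 6-MP alone and 1.23 with both (-1.13, -1.34 to -0.91). NMRAL1, an NADPH-sensing protein, had 8.60 FPKM with vehicle, 3.52 with histidine, 2.78 with 6-MP alone and 5.38 with both (-1.09, -1.29 to -0.88). For CENATAC vehicle was set apart from the other 3 libraries. In NMRAL1 vehicle was the highest, with the combined treatment between it and the 2 single treatments.

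RPL7A, EEF1B2 and EIF5A, which act in translation, were among the lower genes averaging 5 FPKM or more. RPL7A, a protein of the large ribosomal subunit, had 102 FPKM with vehicle, 60.7 with histidine, 109 with 6-MP alone and 51.1 with both, a difference of -0.74 (-0.82 to -0.66) from 3261 and 2103 reads. Both libraries with histidine were again below both without, but RPL7A has near-identical pseudogenes and shares 12.7% of its exon bases with other genes on the same strand, so its count is uncertain. The elongation factor EEF1B2 had 27.8 FPKM with vehicle, 18.3 with histidine, 20.05 with 6-MP alone and 29.9 with both (-0.57, -0.73 to -0.42), and the factor EIF5A had 11.2, 7.50, 7.89 and 5.95 (-0.52, -0.71 to -0.33). Both of these also have near-identical copies.

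HRAS, the small GTPase, had 6.74 FPKM with vehicle, 3.74 with histidine, 7.66 with 6-MP alone and 7.48 with both, so histidine alone was the low library (-0.71, -0.96 to -0.45). RCC2, a regulator of chromosome alignment, had 20.4, 12.3, 13.6 and 15.7 FPKM (-0.69, -0.81 to -0.56). MT-ATP8, a mitochondrially encoded subunit of ATP synthase, overlaps MT-ATP6 and rested on 64 and 35 reads (-0.92, -1.51 to -0.35). KCNJ2, an inward-rectifier potassium channel, had 4.17 FPKM with vehicle, 2.69 with histidine, 3.81 with 6-MP alone and 15.1 with both. Its difference was -0.49 (-0.68 to -0.30) for histidine against vehicle, but 1.75 for the combined treatment against 6-MP.

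The 6-MP library, which received no histidine, was placed beside these genes. The 15 genes higher by at least 1 had a median difference of 1.11 for histidine against vehicle and of 0.93 for 6-MP against vehicle, and the 4 lower genes had medians of -1.23 and -0.73. For the 68 genes higher by at least 0.5 the medians were 0.68 and 0.52, and for the 29 lower genes -0.62 and -0.45. Both differences use the same vehicle library, so they are not independent, and a vehicle value that is off for a gene appears in both. The vehicle library was the lowest of the 4 in 52 of the 68 higher genes, or 76.5%, and the highest in 17 of the 29 lower genes, or 58.6%. Among all protein-coding genes it was the lowest in 24.8% and the highest in 13.6%. Since these genes were chosen for a low or high vehicle value against histidine, these shares are descriptions.

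A further comparison of histidine exists that shares no library with this one, namely histidine plus 6-MP minus 6-MP alone, although drug was present in both. Of the 68 genes higher with histidine alone, 13 were higher by at least 0.5 there, or 19.1%, beside 15.7% of all protein-coding genes. Another 13 were lower by at least 0.5, and the median over the 68 genes was -0.004, beside 0.11 over all genes. Of the 29 genes lower with histidine alone, 4 were lower by at least 0.5, or 13.8%, beside 6.23% of all genes, and 8 were higher by at least 0.5, or 27.6%, with a median over the 29 genes of 0.18. The 4 that were lower were MT-ATP8, RPL7A, H2AC8 and UBR7. SAMD1 (0.92), LKAAEAR1 (0.67) and INAFM1 (0.56) were examples that were higher in both comparisons, whereas LY6E was lower by 1.12 when histidine was added to 6-MP.

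The GC content of the transcript, taken from the longest GENCODE 29 transcript, moved with the difference. The genes were split into 10 groups of equal size by GC content. In the group with the lowest GC content the median difference was -0.05, and in the group with the highest it was 0.07. For 6-MP against vehicle the same medians were -0.004 and 0.03. The group with the highest GC content held 25 of the 68 genes higher by at least 0.5, while the group with the lowest held none in either direction. For 6-MP against vehicle, which shares the vehicle library, the highest group held 30 genes higher by at least 0.5 and the lowest again held none in either direction. The median GC content was 60.1% for the 68 higher genes and 55.0% for the 29 lower genes, beside 48.0% for all protein-coding genes. Centring the differences within each group, an alternative added after seeing the data, left 15 protein-coding genes past 1 and 94 past 0.5, with 56 higher and 38 lower in place of 68 and 29. The part of GC content in these differences was not tested.

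**Figure D3:**
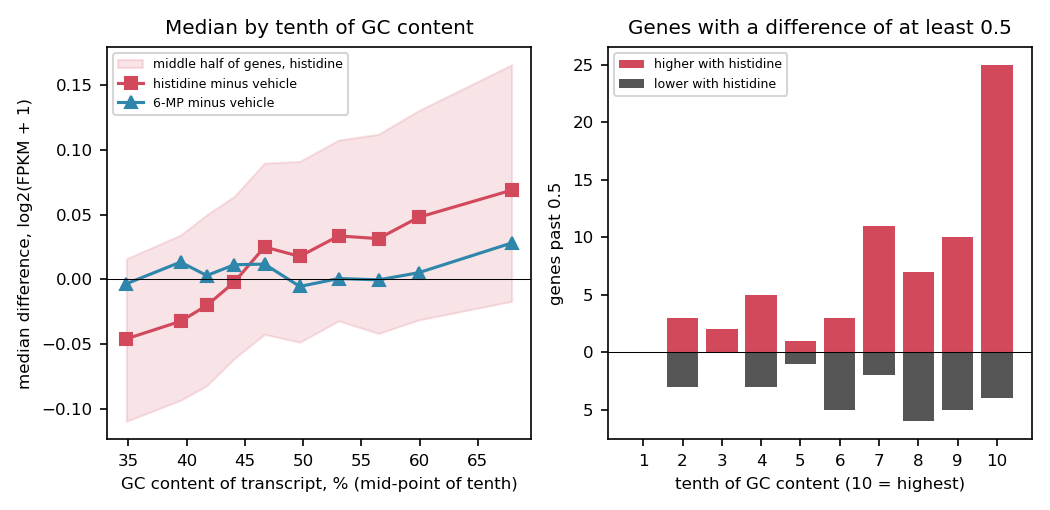
Left, the median difference of log2(FPKM + 1) against vehicle by transcript GC content in 10 groups of equal size for histidine (squares, with the middle 50% of genes shaded) and for 6-MP (triangles). Right, the number of protein-coding genes with a difference of at least 0.5 in each GC group, higher with histidine above the line and lower below it, where the group with the highest GC content holds 25 of the 68 higher genes.

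Among the genes of metal handling, MT2A and SLC30A1 were lower with histidine both without and with 6-MP. MT2A (ENSG00000125148, chr16:56608584-56609497), a metallothionein that binds zinc and copper, had 31.6 FPKM with vehicle, 22.1 with histidine, 36.6 with 6-MP alone and 24.8 with both. Both libraries with histidine were below both without, an order found in 13.8% of all protein-coding genes tested. The difference was -0.50 (-0.71 to -0.29) for histidine against vehicle and -0.54 for the combined treatment against 6-MP. SLC30A1 (ENSG00000170385, chr1:211571568-211579161), which exports zinc from the cell, had 8.42 FPKM with vehicle, 6.63 with histidine, 9.55 with 6-MP alone and 7.96 with both. It showed the same order with smaller differences, -0.30 (-0.44 to -0.16) and -0.24. These are the genes whose promoters with metal response element matches were printed above. They were the lowest members of the metal handling list. Any part of metal binding by histidine or of MTF1 in these differences was not tested. MT1X was nearly silent, at 0.202 FPKM with vehicle and 0.150 with histidine.

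Other zinc genes differed little. The zinc importers SLC39A10 and SLC39A14 had differences of 0.00 and -0.01, and MTF1, the zinc-sensing factor itself, had -0.02 (-0.16 to 0.12). Iron genes were mixed, with FTH1, the ferritin heavy chain, at 55.9 FPKM with vehicle and 70.1 with histidine (0.32, 0.23 to 0.41) and TFRC, the transferrin receptor, at 43.1 and 37.3 (-0.20, -0.26 to -0.15). FTH1 also stood above vehicle with 6-MP, at 66.9 FPKM, and it has many near-identical pseudogenes. SLC31A1, the copper importer, had a difference of -0.16 (-0.30 to -0.02), and SLC25A37, the mitochondrial iron importer, one of 0.12 (0.03 to 0.20). Over the list, 20 members passed the filter, 8 higher and 12 lower with histidine, none reached 0.5, and the median was -0.01.

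**Figure D4:**
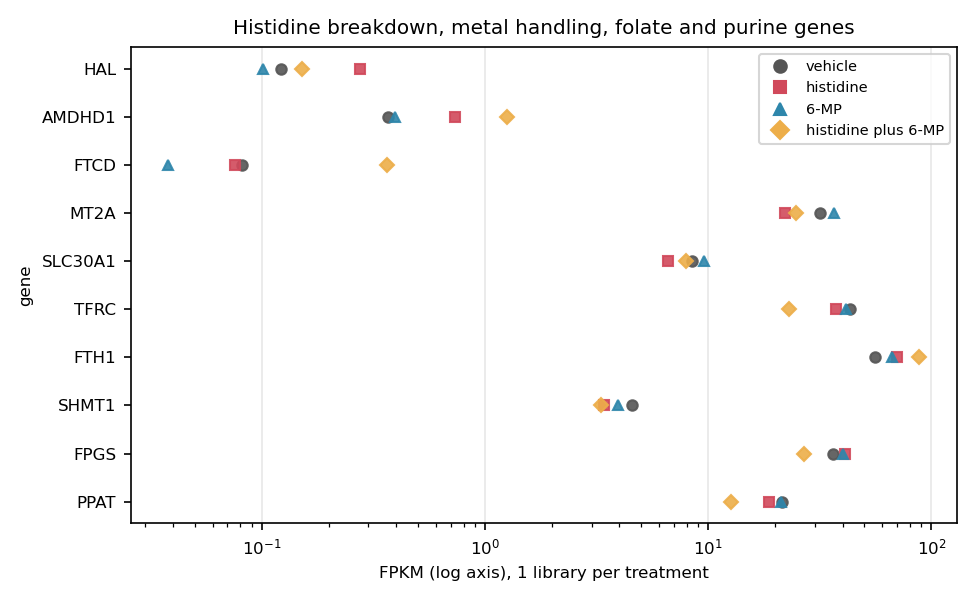
FPKM on a log axis in each of the 4 libraries, 1 per treatment, for genes of histidine breakdown (HAL, AMDHD1, FTCD), metal handling (MT2A, SLC30A1, TFRC, FTH1), folate (SHMT1, FPGS) and purine synthesis (PPAT). For MT2A and SLC30A1 both libraries with histidine lie below both without, from 22.1 to 36.6 FPKM and from 6.63 to 9.55 FPKM. This order held for 13.8% of all protein-coding genes tested.

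Folate and purine genes stayed near vehicle with histidine alone. In the folate list 20 members passed the filter, none reached 0.5, and the median was -0.02. SHMT1, the cytosolic serine hydroxymethyltransferase, was lowest, at 4.58 FPKM with vehicle and 3.41 with histidine (-0.34, -0.50 to -0.18). Among the higher members was FPGS, which adds glutamates to folates, at 36.4 and 41.2 FPKM (0.17, 0.09 to 0.26). MTHFD2 had 19.3 and 19.1 FPKM, SHMT2 had 55.8 and 55.9, and TYMS had 19.2 and 18.96.

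Of 14 purine synthesis genes past the filter, 11 were lower with histidine, by at most 0.17, and the median was -0.04. PPAT, the first committed enzyme, had 21.3 FPKM with vehicle and 18.8 with histidine (-0.17, -0.27 to -0.08), and APRT, a salvage enzyme, had a difference of -0.11 (-0.23 to 0.01). GART had 27.5 and 27.2 FPKM and ATIC had 54.4 and 54.3. PRPS1, which makes the ribose donor, was highest at 0.05 (-0.07 to 0.17). Thiopurine genes had a median of -0.03 over 15 members. HPRT1, which activates 6-MP, had 19.3 FPKM with vehicle and 18.3 with histidine, and TPMT, which inactivates it by methylation, had 7.48 and 8.31 (0.14, -0.05 to 0.32). SLC29A2, a nucleoside transporter, had a difference of 0.25 (-0.06 to 0.55), NT5C2, a nucleotidase, one of 0.02 (-0.08 to 0.12), and ABCC4, an exporter of thiopurine metabolites, one of -0.17 (-0.33 to -0.01).

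Genes of the response to amino acid stress did not move together. In the ATF4 list 24 members passed the filter, with a median of 0.00, 12 higher and 12 lower. ATF4 itself had 271 FPKM with vehicle and 261 with histidine, DDIT3 had 3.10 and 2.91, and TRIB3 had 8.72 and 8.20. SESN2, a leucine sensor upstream of mTORC1 that also belongs to the p53 targets, was lowest, at 3.51 FPKM with vehicle, 1.94 with histidine, 4.18 with 6-MP alone and 4.08 with both (-0.62, -0.87 to -0.36). CEBPB, a transcription factor, was highest, at 6.34, 9.23, 9.04 and 19.6 FPKM (0.48, 0.23 to 0.73). The 33 aminoacyl-tRNA synthetases had a median of -0.02 and ranged from PARS2 at -0.18 to CARS2 at 0.21.

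Lipid and sugar metabolism showed differences in a few genes. The 23 cholesterol synthesis genes had a median of -0.04 and ranged from CYP51A1 at -0.22 to EBP at 0.14. The 12 fatty acid synthesis genes had a median of 0.01, with ELOVL6, a fatty acid elongase, lowest at -0.25 (-0.45 to -0.06). The 20 glycolysis genes also had a median of 0.01. LDHA, lactate dehydrogenase, had 9.95 FPKM with vehicle, 7.13 with histidine, 7.999 with 6-MP alone and 9.95 with both (-0.43, -0.56 to -0.30), SLC16A1, a lactate transporter, had -0.37 (-0.58 to -0.16), and ENO2, an enolase, had 0.28 (0.10 to 0.46). EGLN1, the prolyl hydroxylase that marks HIF-1α for destruction, had 1.03 FPKM with vehicle, 2.56 with histidine, 1.84 with 6-MP alone and 1.74 with both (0.81, 0.59 to 1.02). It was the only member past 0.5 among 15 hypoxia genes, which had a median of 0.02.

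The stress lists had medians between -0.07 and -0.02. Of 18 heat shock genes 15 were lower with histidine, with a median of -0.07. Among them HSF1, the heat shock transcription factor, had 1.83 FPKM with vehicle, 0.633 with histidine, 1.86 with 6-MP alone and 1.72 with both, so histidine alone was the low library (-0.79, -1.003 to -0.57). HSP90AA1 had 374 and 341 FPKM (-0.13, -0.16 to -0.11). Of 23 NRF2 and glutathione genes 16 were lower, with a median of -0.07 and CHAC2 lowest at -0.25 (-0.46 to -0.03). The 24 genes of the unfolded protein response had a median of -0.02, from MANF at -0.28 (-0.46 to -0.11) to CRELD2, which is also induced by stress of the endoplasmic reticulum, at 0.31 (0.18 to 0.45). None of these medians was beyond 0.1 in absolute size.

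Cell cycle, p53 and cell death genes were near vehicle. The 26 p53 targets had a median of 0.00, with no member above 0.11, and CDKN1A, the cell cycle inhibitor p21, had 48.6 FPKM with vehicle and 42.8 with histidine (-0.18, -0.27 to -0.09). Of 32 mitosis genes 21 were lower, with a median of -0.04 and CDK1 at 71.6 and 62.4 FPKM (-0.20, -0.26 to -0.13). Against these, UBE2S, a ubiquitin-conjugating enzyme of the anaphase-promoting complex, had 87.4 FPKM with vehicle, 131 with histidine, 129 with 6-MP alone and 63.4 with both (0.57, 0.51 to 0.63), and CENPA, the centromeric histone H3 variant, had a difference of 0.33 (0.20 to 0.47). The 42 DNA replication genes had a median of 0.02, from CCNE2 at -0.23 to ORC6 at 0.12. BCL2L2, an inhibitor of apoptosis, was the highest of 13 BCL2 family members (0.28, 0.12 to 0.45), and BCL2 had 22.5 and 24.3 FPKM.

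Histone genes were mostly too low to judge, since 48 of 63 in the table fell below the filter. Of the 15 kept, H2AC13 (-0.52, -1.23 to 0.27) and H2AC8 (-0.51, -1.20 to 0.30) passed 0.5 on few reads. H2AC13 had 15 reads with vehicle and 9 with histidine, and H2AC8 had 11 and 6. Replicative histone mRNAs are not polyadenylated. The linker histone H1-10 had 27.1 FPKM with vehicle and 37.1 with histidine (0.44, 0.29 to 0.59). It had 36.1 with 6-MP alone and 35.9 with both, so vehicle was the low library.

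Immune genes differed by small amounts. The 16 NF-kappaB targets had the highest median of the lists with at least 5 members, 0.06, with 11 higher and 5 lower. The highest were CCR7, a homing receptor, at 0.28 (-0.05 to 0.60) and LTB, lymphotoxin beta, at 0.25 (0.02 to 0.47). The lowest were ICAM1 at -0.19 (-0.48 to 0.10) and LTA at -0.17 (-0.57 to 0.25). HLA-B, an MHC class I heavy chain, had 14.7 FPKM with vehicle, 19.5 with histidine, 17.3 with 6-MP alone and 21.4 with both (0.38, 0.24 to 0.52). HLA-DRA, an MHC class II chain, had 205, 181, 266 and 403 FPKM (-0.17, -0.24 to -0.11). The 36 interferon-stimulated genes had a median of 0.00, from IRF7 at -0.44 (-0.73 to -0.14) to USP18 at 0.25. Among 23 cytokine and receptor genes, IFNGR2 (0.44, 0.16 to 0.72) and IL3RA (0.41, 0.03 to 0.79) were highest and IFNGR1 was lowest (-0.23, -0.34 to -0.13). Of the 15 precursor B cell markers, MME, the surface antigen CD10, had 27.7 FPKM with vehicle, 32.0 with histidine, 28.4 with 6-MP alone and 46.9 with both (0.20, 0.14 to 0.26). Both libraries with histidine were above both without, as in 24.6% of all protein-coding genes tested. The median of the 15 markers was 0.04. The 15 immediate early genes had a median of -0.01, from ZFP36 at -0.21 to JUND at 0.22, and the MHC lists had medians of 0.04 for 13 class I genes and -0.05 for 8 class II genes.

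Most lists of ribosomal and mitochondrial genes had medians close to that of all genes, and the mitochondrially encoded subunits stood lowest. All 13 mitochondrially encoded subunits were lower with histidine, with a median of -0.09, the lowest of the lists with at least 5 members. MT-CO2 had 4425 FPKM with vehicle and 3981 with histidine (-0.15, -0.17 to -0.13), whereas MT-ND6 had a difference of 0.00 (-0.06 to 0.05). The same 13 genes had a median of -0.12 for 6-MP against vehicle, which shares the vehicle library. The 72 nuclear respiratory chain subunits had a median of -0.02, with ATP5F1D highest at 0.44 (0.31 to 0.57) and NDUFS3 lowest at -0.36 (-0.61 to -0.11). The 74 mitochondrial ribosomal proteins also had a median of -0.02. Of 80 cytosolic ribosomal proteins 54 were lower, beside 46.3% of all genes, with a median of -0.03, and RPL7A was the only member past 0.5.

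Of 35 proteasome subunits 25 were lower, with a median of -0.04. PSMB3 was past 1 in the other direction, and PSMC4, an ATPase of the proteasome cap, had 4.77 FPKM with vehicle and 2.84 with histidine (-0.59, -0.86 to -0.31). The 30 lysosome and autophagy genes had a median of 0.00. The 35 actin genes had a median of -0.05, with GSN, gelsolin, highest (0.32, 0.17 to 0.48). The 360 zinc finger genes had a median of 0.05, with 225 higher and 135 lower, and ZNF296 (0.74, 0.40 to 1.08) and ZNF771 (0.67, 0.49 to 0.85) past 0.5. Among 23 snoRNA host genes SNHG7 was highest, at 14.6 FPKM with vehicle and 18.5 with histidine (0.33, 0.21 to 0.44), and the median was -0.01.

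**Figure D5:**
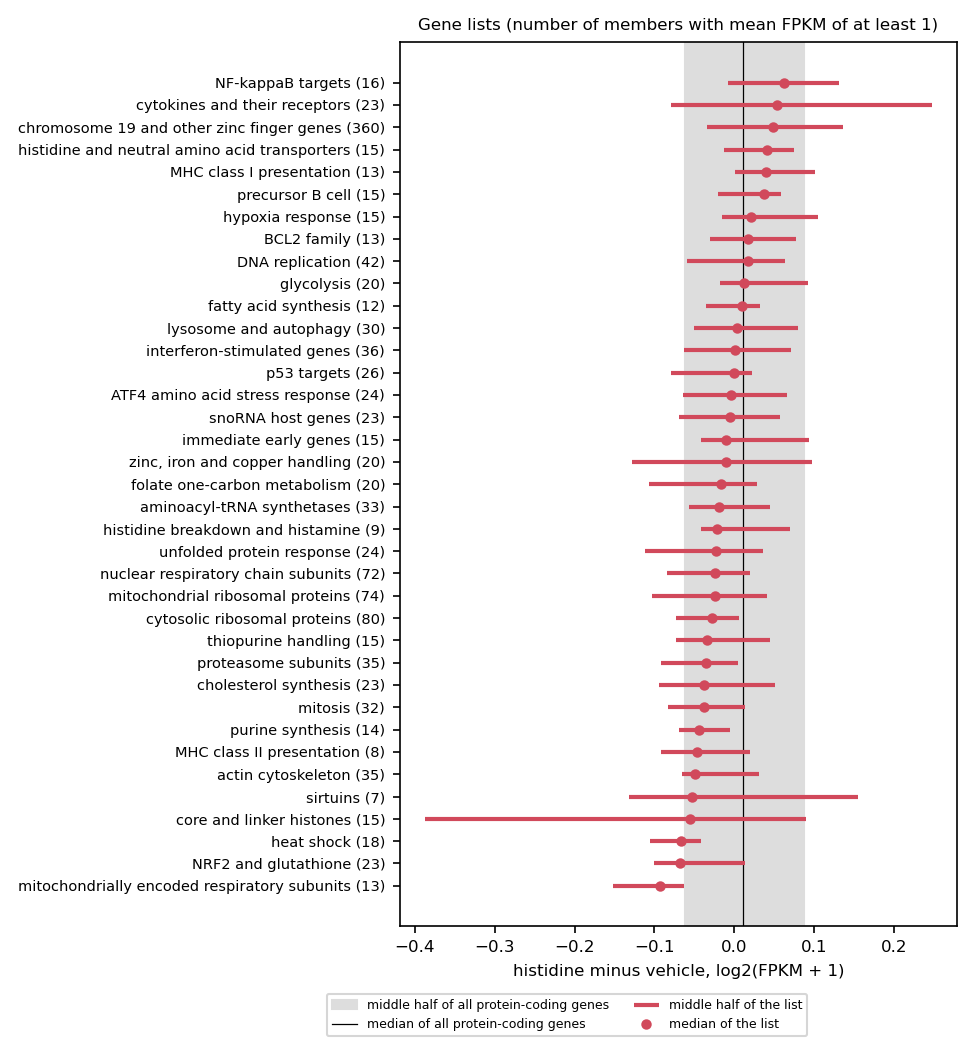
Median difference of log2(FPKM + 1), histidine minus vehicle, with the middle 50% of members as a line, for 37 gene lists with at least 5 members past the filter, the number of members in brackets. The grey band is the middle 50% of all 9997 protein-coding genes around their median of 0.01, and the list medians run from -0.09 to 0.06.

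Of the 37 lists with at least 5 members past the filter, none had a median beyond 0.1 in either direction, while the middle 50% of all protein-coding genes ran from -0.06 to 0.09. At most 2 members of any of these lists reached an absolute difference of 0.5. The differences that did reach 1 belonged to 19 separate genes, and in all 19 the vehicle library was the lowest or the highest of the 4. These genes were chosen for a vehicle value far from histidine, so this order is a description. Among all protein-coding genes vehicle was the lowest in 24.8% and the highest in 13.6%.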

How the data were processed

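Total RNA of Reh-6-MPR cells was made into stranded poly(A) libraries and given to a service company for sequencing and quantification. The submitters' processing notes name Trimmomatic, HISAT2, Cufflinks and HTSeq and the build hg38 (GRCh38), while versions and the strand setting of the counting are not given in the sources used here. The authors deposited FPKM values per gene for 4 libraries, 1 per treatment, and groups were taken from the sample labels. The label Blank was read as the PBS control, the only treatment left by the other labels.

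From the deposited FPKM, differences of log2(FPKM + 1) were computed for genes averaging 1 FPKM or more across the libraries. Whole reads were recovered from the steps of the FPKM values for 29832 of 29833 genes (tolerance 0.003 of a read), with totals from 99.95% to 99.99% of the denominators. Libraries held 12899122 to 15486376 reads. Intervals are exact Clopper-Pearson 95% intervals of the share of reads in the histidine library, carried to the log2(FPKM + 1) scale, and they cover counting error only. No test was run, since DESeq2, used by the authors, and edgeR estimate the spread from replicates.

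Named were HAL, UROC1, AMDHD1, FTCD, SIRT5 and HINT1, every protein-coding gene past 1, the 10 highest and 10 lowest protein-coding and the 3 highest and 3 lowest noncoding genes averaging 5 FPKM or more, and the 2 highest and 2 lowest members of each of 38 lists. Other genes named are textbook members of these lists, picked after their values had been computed. Members and lists were chosen with earlier results of these data known. The list of markers of other cells had 2 members past the filter, COL1A1 and MPO, with a median of 0.13. GC content and shared exons came from GENCODE 29, in which 28905 genes were found, and promoters came from RefSeq. Alternatives were a pseudocount of 0.1, other filters, median-ratio and TPM scaling, a threshold of 1.5 and, added after seeing the data, centring within 10 GC groups and at least 50 reads. A few genes that this rule names are not reported here. Scripts were tested on simulated data. Scripts ran in Python 3.11.15 with pandas 2.3.3, scipy 1.17.1, numpy 2.4.6 and matplotlib 3.10.9.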

Additional observations from a re-analysis of the deposited data

How the results depend on the processing

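No paired analysis was possible because the treatments have a single library each, and leaving out replicates did not apply. Against 170 genes past the threshold, 19 of them protein-coding, 97 protein-coding genes past 0.5 and 0 lists with an absolute median of at least 0.1, the counts moved as follows. A pseudocount of 0.1, which gives low genes larger differences, gave 389, 42 and 251. TPM scaling, which raises every value about 4-fold against the same pseudocount and filter, gave 1159, 64 and 477. No filter on low values gave 374 genes of all biotypes, and a mean FPKM of at least 5 gave 21, 7, 29 and 1 list, the NF-kappaB targets at 0.12. A threshold of 1.5 gave 50 genes and 2 protein-coding genes, C4orf48 and INAFM1. At least 50 reads in both libraries left 20 genes of all biotypes. Median-ratio scaling gave 1 list, the mitochondrially encoded subunits at -0.12, and centring within 10 GC groups gave 4 lists, those subunits at -0.11, histones at -0.11, sirtuins at -0.11 and NRF2 and glutathione genes at -0.10. The other counts stayed within 1.5 times, with 168, 17 and 97 under median-ratio scaling and 162, 15 and 94 under GC centring. GC centring moved the share of higher genes among those past 0.5 from 70.1% to 59.6%. No named gene past 1 changed its sign under the other pseudocount, either scaling or GC centring.

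With 1 library per treatment, the spread between cultures is unknown. Genes with few reads, among them the histidine breakdown enzymes and nearly all short RNAs, are limited by depth. The vehicle library enters every difference from vehicle, so an unusual value there appears in both the histidine and the 6-MP comparison.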
